A study of Gossypium hirsutum with 6 samples.

Results

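Pectinesterases and their inhibitors were followed in leaves of upland cotton (Gossypium hirsutum), a crop with an A and a D subgenome. The members were all rows of the deposited gene table with the word pectinesterase in their protein description, which were 151 of 72761 genes. The description named an enzyme alone in 103 of them, an enzyme and an inhibitor together in 43 and an inhibitor alone in 5. Leaf RNA came from 3 libraries labelled as transgenic lines, with titles naming FPF1 (flowering promoting factor 1), and from 3 wild-type libraries with titles reading W10. The study asks about FPF1 in shade avoidance, and its design text describes both plants with constitutive FPF1 expression and CRISPR mutants. The labels give neither the construct, its promoter and the number of lines behind the transgenic libraries nor the age of the plants, and they do not say whether replicates were separate plants. The p-values therefore rest on the spread among these 6 libraries alone, and that spread may be technical.

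Pectin is made with methyl groups on its homogalacturonan chains. Pectinesterases, also called pectin methylesterases, remove these groups in the cell wall. Demethylated stretches can be bridged by calcium, which stiffens the wall, or be cut by polygalacturonases and pectate lyases, which loosens it. Inhibitor proteins bind plant pectinesterases and block them. Many pectinesterases are made with a pro-region that resembles such an inhibitor, and these carry the double name pectinesterase/pectinesterase inhibitor. Roles given below are known from other species where these are named, and were not measured in cotton.

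Levels are in FPKM, in which the fragments of a gene are divided by transcript length and by the mapped fragments of its library. Depth in reads is unknown, and relative depth from the smallest values was 0.99 to 1.14 in transgenic and 1.19 to 1.28 in wild-type libraries, with transgenic 1 set to 1. The FPF1-like gene GH_D02G0524 stood at 133, 199 and 195 FPKM in transgenic libraries and at 0, 0 and 0.467 FPKM in wild type. Of 43837 genes tested, 1720 were higher and 780 lower in the transgenic libraries, or 1193 and 1026 after median-of-ratios scaling. Leaf markers had 2 rises and 23 falls among 46 tested genes, and the directions of these calls went by gene family. Chlorophyll a-b binding genes summed to 1388 to 1661 FPKM in transgenic and to 3178 to 4572 FPKM in wild-type libraries, with 23 of 40 tested genes lower. The 6 genes of the RuBisCO small subunit summed to 736 to 1489 FPKM in transgenic and to 553 to 756 FPKM in wild-type libraries. These sums overlapped, and the 1489 FPKM was in transgenic 3, against 845 and 736 FPKM in transgenic 1 and 2. Of the 6 genes, GH_A11G1702 and GH_D11G1742 were called higher and none lower. Markers of the secondary wall of xylem, searched as the cellulose synthases CesA4, CesA7 and CesA8 and other wall genes, rose in 19 of 29 tested genes. Genes were tested if a group mean reached 1 FPKM. Of the 19, only GH_D08G0525 and GH_A08G0515 did so in wild type, at 2.12 and 2.72 FPKM. The others were tested through the transgenic libraries alone, which shapes the share called. The 53 genes of this list summed to 132 to 234 FPKM in transgenic and to 44.8 to 69.8 FPKM in wild-type libraries. Of the 53, 7 were listed at 0 in every library. None of 38 tested pollen and anther genes and none of 37 tested cell division genes was called. Pollen and anther genes summed to 261 to 282 FPKM in transgenic and to 215 to 265 FPKM in wild-type libraries, and division genes to 585 to 605 against 588 to 611 FPKM. Seed storage and late embryogenesis genes had 1 rise (GH_D08G0714) and 1 fall (GH_D01G0721) among 53 tested, with a median log2 fold change of -0.80, against 0.08 over all genes. GH_D01G0721 averaged 0.0807 FPKM in transgenic libraries and was tested through the wild type alone. Sums of these seed genes overlapped, at 23915 to 33651 FPKM in transgenic and 24044 to 31166 FPKM in wild-type libraries. In bulk leaf RNA, fewer cells of a type and less RNA per cell cannot be told apart, and the part of these markers in the results on pectinesterases was not tested.

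Most pectinesterase genes were silent or nearly so in these leaves. In every library 67 of the 151 members were listed at 0, and 53 more had values that stayed under a mean of 1 FPKM in both groups. The remaining 31 were tested, which is 20.5% of the members, against 60.2% of all genes in the table. They were 21 of the 103 enzymes, 8 of the 43 genes with the double name and both expressed inhibitors of 5. Some families were silent as a whole, and others held both silent and expressed genes. All 14 genes described as putative pectinesterase 63 and all 4 of pectinesterase/pectinesterase inhibitor 58 were listed at 0 in every library. Of 10 putative pectinesterase 11 genes 7 were listed at 0, and none of the 10 averaged above 0.0768 FPKM over the libraries. Genes like PPME1, an enzyme of pollen tubes in Arabidopsis, were listed at 0 in 4 of 5 cases. Genes like QRT1, which frees the grains of the pollen tetrad in Arabidopsis, reached at most 0.235 FPKM on average over the libraries in 4 genes. The table's annotation gave 20 members the term pollen tube growth, 18 of which were listed at 0 in every library, and the highest single value among them was 0.142 FPKM.

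Some of the silent genes lay side by side. The members lay on 25 chromosomes, read from the identifiers, and 55 of them stood in 18 runs of consecutively numbered genes. The longest run, 16 genes from GH_D12G2156 to GH_D12G2171 on chromosome D12, held pectinesterase 63 and PPME1-like genes, and all 16 were listed at 0 in every library. In a run of 3 pectinesterase-like genes on D09, GH_D09G2507 to GH_D09G2509, all 3 were expressed enough to be tested. Reads of such neighbours, and of A and D copies, may have been shared between identifiers by the authors' counting, which is not described.

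**Figure D1:**
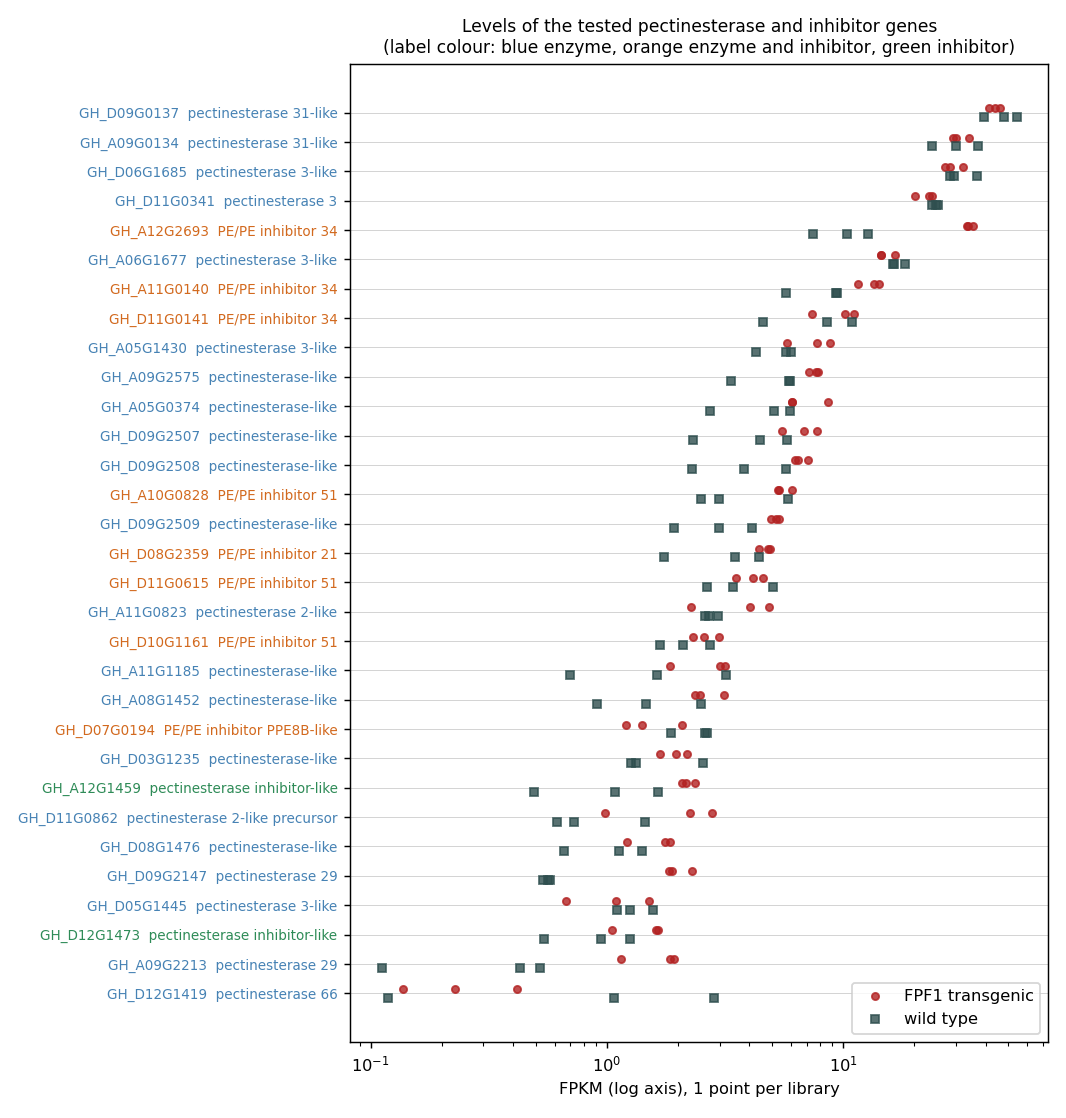
FPKM on a log axis of the 31 tested members, 1 point per library, with FPF1 transgenic libraries as circles above wild-type libraries as squares. The highest genes overlap between the groups, while GH_A12G2693 stands at 33.4 to 35.6 FPKM in transgenic and 7.45 to 12.8 FPKM in wild-type libraries.

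The most abundant members described as enzymes alone did not differ between the groups beyond their spread. GH_A12G2693, with the double name and 22.2 FPKM on average over the 6 libraries, was called higher in transgenic libraries, as given below. GH_D09G0137, pectinesterase 31-like and the highest member, had 43.7, 46.1 and 41.5 FPKM in transgenic libraries, against 48.1, 39.5 and 54.2 FPKM in wild type. The wild-type values enclosed the transgenic ones, and the log2 fold change on the log2(FPKM + 1) scale was -0.10 with a standard error of 0.131. The second pectinesterase 31-like gene, GH_A09G0134, had 30.1, 29.0 and 33.96 FPKM in transgenic libraries, against 30.1, 23.8 and 37.2 FPKM in wild type. The groups overlapped (log2 0.05, standard error 0.164).

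Genes named pectinesterase 3 or pectinesterase 3-like held the third, the fourth and the sixth place in the order of levels. GH_D06G1685 had 32.1, 28.4 and 27.1 FPKM in transgenic libraries, against 29.5, 28.3 and 37.0 FPKM in wild type. GH_D11G0341 averaged 22.3 ± 1.92 FPKM in transgenic and 24.5 ± 0.723 FPKM in wild-type libraries (SD, n = 3 each, as for all values with ±). GH_A06G1677 had 14.4, 14.5 and 16.6 FPKM in transgenic libraries, against 18.2, 16.3 and 16.3 FPKM in wild type. In all 3 genes the groups overlapped. Their log2 fold changes were -0.11, -0.13 and -0.15, with adjusted p of 0.665, 0.469 and 0.424 (limma, Benjamini-Hochberg over all genes tested, as for every adjusted p). The 10 enzyme genes named 31 or 3 summed to 149 to 152 FPKM in transgenic and to 139 to 176 FPKM in wild-type libraries. They made up 51.3% to 52.6% of the summed level of all members in transgenic libraries and 63.9% to 67.7% in wild type.

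A call was made for 2 of the 31 tested members, both higher in the transgenic libraries, at an adjusted p under 0.05. These 6.45% of the members stand beside 5.7% of all genes called in either direction, 3.92% called higher and 1.78% called lower, so the share called was near that of all genes. At an unadjusted p under 0.05 there were 8 members of 31, against 24% of all genes. In 10 of the 31 the transgenic values all lay above the wild-type values, or 32.3%, against 20.6% of all genes tested. In none did they all lie below, against 9.51%. The median log2 fold change of the tested members was 0.41, and 24 of the 31 were positive, against a median of 0.08 and 60.6% positive over all genes. After median-of-ratios scaling these medians were 0.32 for the members and -0.00425 for all genes. Of the 31, 4 passed the filter through the transgenic libraries alone and 1 through the wild type alone, so these values describe the expressed members and not the family.

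**Figure D2:**
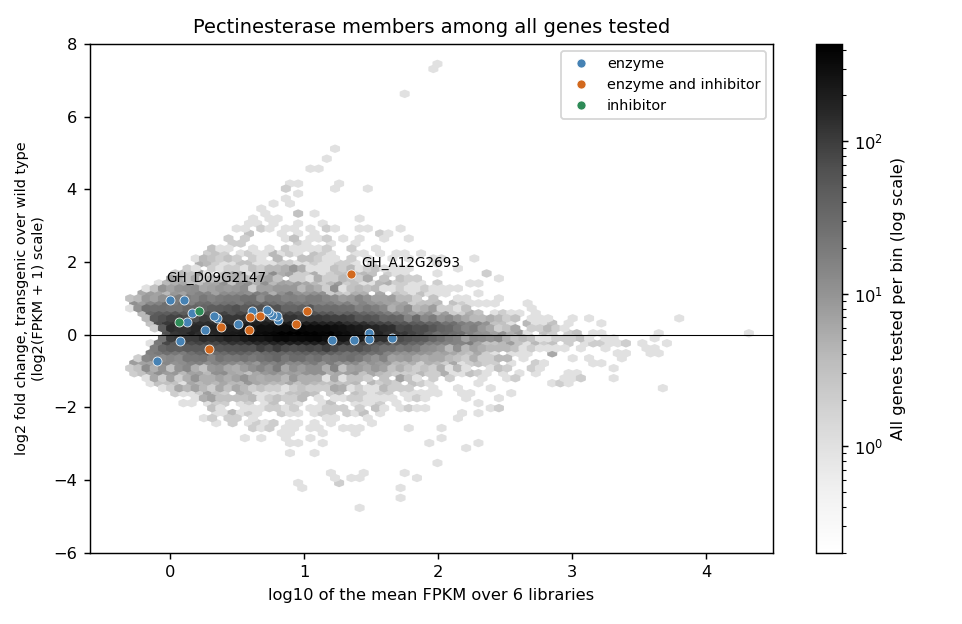
Log2 fold change of the transgenic over the wild-type libraries against the log10 of the mean FPKM, with all 43837 tested genes as grey bins and the 31 tested members as coloured points by class. The members lie among the other genes, and GH_A12G2693 has the highest log2 fold change of the tested members, 1.68.

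The smallest adjusted p among the members was in a gene with the double name. GH_A12G2693 on chromosome A12, described as probable pectinesterase/pectinesterase inhibitor 34, had 33.4, 35.6 and 33.8 FPKM in transgenic libraries, against 12.8, 7.45 and 10.4 FPKM in wild type. The groups stood far apart, and the spread within the transgenic libraries was small. The gene rose 3.36-fold in the mean, with a log2 fold change of 1.68, a standard error of 0.175 and an adjusted p of 0.00597. It was called in all 14 alternatives tried, with adjusted p from 0.00409 to 0.0452 over the 6 libraries left out in turn. Its transcript was the fifth highest of all members over the 6 libraries. In Arabidopsis, PME34 is known for a part in heat tolerance and in the wall of guard cells.

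The other 3 genes of that name stood lower. GH_A11G0140 had 13.5, 14.1 and 11.5 FPKM in transgenic libraries, against 9.35, 5.69 and 9.38 FPKM in wild type. The groups did not overlap, but the gene was not called (log2 0.64, adjusted p = 0.0967). GH_D11G0141 had 11.1, 10.2 and 7.35 FPKM in transgenic libraries, against 8.53, 4.57 and 10.9 FPKM in wild type, and these overlapped. GH_D04G0016 had 0.530, 1.14 and 0.859 FPKM in transgenic libraries, against 0.117, 0.0640 and 0 FPKM in wild type, and was too low for the filter. Without a filter it was called (log2 0.78, adjusted p = 0.0422), where 1.98% of 58258 genes were called higher. All 4 genes together summed to 53.5 to 61.0 FPKM in transgenic libraries and to 17.8 to 30.8 FPKM in wild type.

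**Figure D3:**
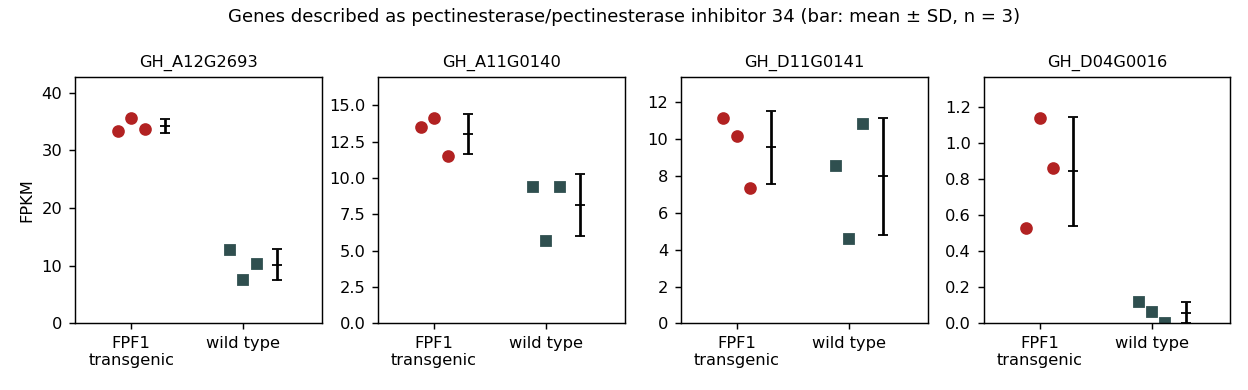
FPKM of the 4 genes described as pectinesterase/pectinesterase inhibitor 34, with 3 transgenic libraries left and 3 wild-type libraries right in each panel and mean ± SD beside them. GH_A12G2693 averages 34.2 FPKM in transgenic and 10.2 FPKM in wild-type libraries, while the groups of GH_D11G0141 overlap.

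The second call was at a low level. GH_D09G2147, described as probable pectinesterase 29, had 2.30, 1.88 and 1.83 FPKM in transgenic libraries, against 0.564, 0.535 and 0.575 FPKM in wild type. It rose 3.59-fold in the mean (log2 0.94, standard error 0.173, adjusted p = 0.0279). The call held without wild type 3 (adjusted p = 0.0472) and ended without any other single library, with adjusted p up to 0.108. A gene of the same name on A09, GH_A09G2213, had 1.15, 1.85 and 1.92 FPKM in transgenic libraries, against 0.111, 0.429 and 0.519 FPKM in wild type. Its groups did not overlap either and its means differed 4.65-fold, but it missed the threshold (log2 0.96, adjusted p = 0.0543). With limma run without a trend of variance with level and without robust estimation, its adjusted p was 0.0368. Both genes of this name had a mean under 1 FPKM in wild type and were tested through the transgenic libraries. The other 2 genes named 29 were listed at 0 in every library.

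The largest family, 36 genes described only as pectinesterase-like, had 9 tested members and 12 listed at 0 in every library. The tested ones averaged 1.34 to 6.31 FPKM over the libraries, and all 9 were lowest in wild type 2. GH_A09G2575 had 7.70, 7.84 and 7.12 FPKM in transgenic libraries, against 5.90, 3.35 and 5.93 FPKM in wild type. GH_D09G2508 had 7.09, 6.45 and 6.26 FPKM in transgenic libraries, against 3.80, 2.28 and 5.75 FPKM in wild type. In both genes the groups did not overlap, and wild type 2 was well below the other libraries. GH_D09G2508 was not called (log2 0.68, adjusted p = 0.158), nor was any other of the 9, and without wild type 3 it was (adjusted p = 0.0472). Its neighbour GH_D09G2507 had 7.73, 6.84 and 5.52 FPKM in transgenic libraries, against 4.42, 2.31 and 5.79 FPKM in wild type, with overlap. GH_D09G2509, of the same D09 run, had 4.92, 5.21 and 5.34 FPKM in transgenic libraries, against 2.97, 1.92 and 4.10 FPKM in wild type. Its groups did not overlap (log2 0.66, adjusted p = 0.116), nor did those of GH_A05G0374 (log2 0.54, adjusted p = 0.252). The 36 genes summed to 43.4, 44.8 and 44.9 FPKM in transgenic libraries, against 30.8, 18.6 and 40.2 FPKM in wild type.

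Wild type 2 stood low across the members. It held the lowest of the 6 values in 19 of the 31 tested members, while it held the lowest value in 23.7% of all genes tested. Among the wild-type libraries alone it was lowest in 21 of 31, against 36.0% of all genes. Its share of all genes was close to that of wild type 3, which held the lowest value in 23.5% of all genes but in 5 of the 31 members. Without wild type 2 the median log2 fold change of the tested members was 0.27, against 0.41 with it, and the median of all genes was 0.08 both times. Relative depth of wild type 2 was 1.28, the highest of the 6 libraries. A difference among the wild-type libraries was not tested.

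**Figure D4:**
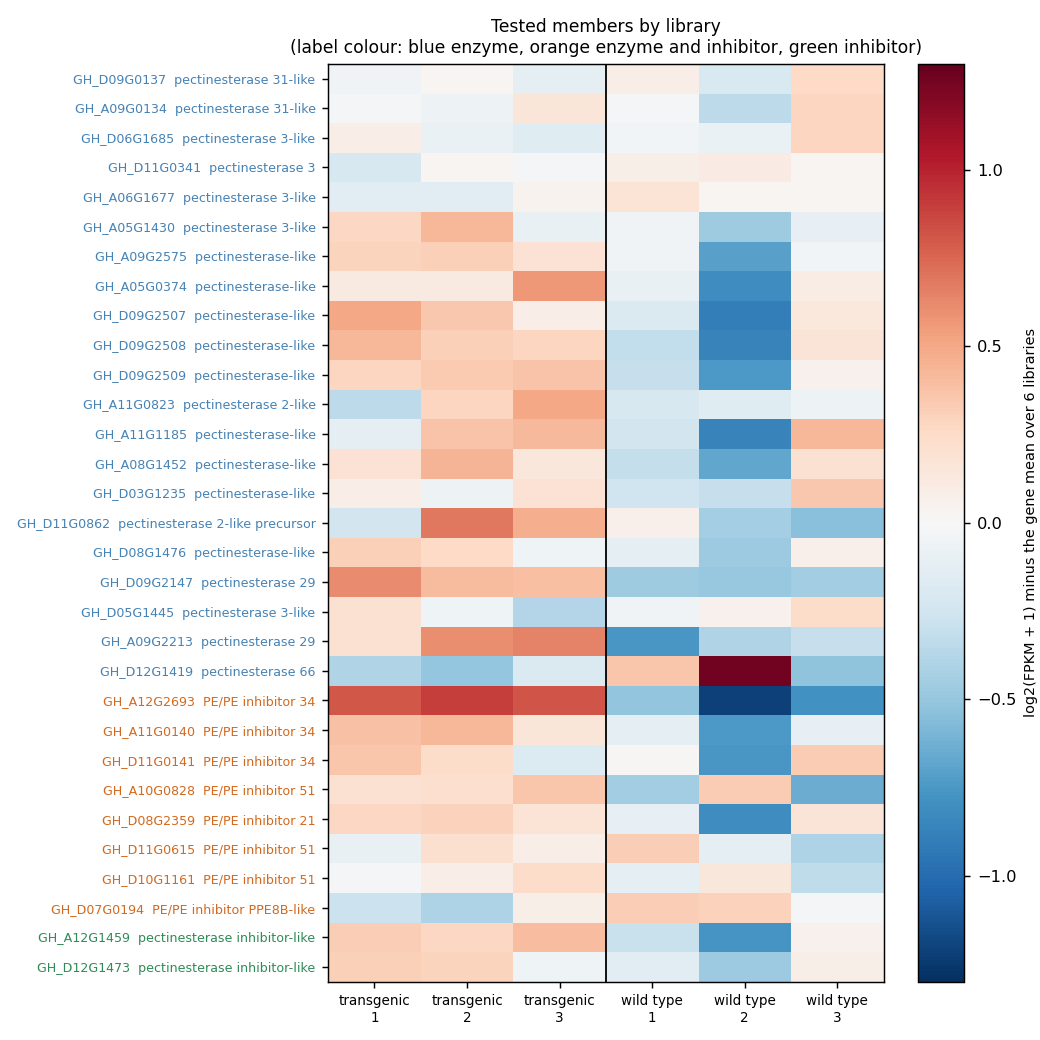
Deviation of log2(FPKM + 1) from the gene mean for the 31 tested members, with transgenic libraries left and wild-type libraries right of the line and genes grouped by class. Wild type 2 holds the lowest value in 19 of the 31 genes, while GH_D12G1419 is highest there.

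Among the other tested genes with the double name, 3 were called pectinesterase/pectinesterase inhibitor 51. The highest, GH_A10G0828, had 5.27, 5.35 and 6.04 FPKM in transgenic libraries, against 2.99, 5.86 and 2.50 FPKM in wild type. Here wild type 2 was the high library, and the gene was not called (log2 0.52, adjusted p = 0.262). It was called without wild type 2 and in no other setting. The remaining pair, GH_D11G0615 and GH_D10G1161, differed by log2 0.14 and 0.20, with overlapping groups. GH_D08G2359, of the number 21, had 4.78, 4.89 and 4.41 FPKM in transgenic libraries, against 3.47, 1.74 and 4.39 FPKM in wild type. Its groups were separated by a narrow margin (log2 0.49, adjusted p = 0.276).

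Entries naming an inhibitor alone were few and low. Of the 5 genes, all described as pectinesterase inhibitor-like, 3 were listed at 0 in every library. GH_A12G1459 had 2.17, 2.07 and 2.36 FPKM in transgenic libraries, against 1.08, 0.493 and 1.65 FPKM in wild type. The transgenic values all lay above, with means that differed 2.05-fold, but the gene was not called (log2 0.66, standard error 0.237, adjusted p = 0.148). GH_D12G1473 had 1.65, 1.61 and 1.05 FPKM in transgenic libraries, against 0.947, 0.543 and 1.26 FPKM in wild type, with overlap (log2 0.36, adjusted p = 0.372). Neither was called in any alternative tried.

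Sums over whole classes showed where the transcript of the family lay. Enzymes summed to 202, 209 and 207 FPKM in transgenic libraries, against 195, 166 and 222 FPKM in wild type. The groups overlapped, and the difference of the means, 11.4 FPKM, was smaller than the wild-type SD of 28.1 FPKM and turned to -2.03 FPKM after median-of-ratios scaling. The 10 genes named 31 or 3 held most of the enzyme sum. Without them the sums of the other 93 enzymes did not overlap. This split was not planned and took out genes whose groups overlapped, so the gap that was left partly follows from the choice. The 93 enzymes summed to 51.3, 56.2 and 58.0 FPKM in transgenic libraries, against 37.1, 26.4 and 45.9 FPKM in wild type. Genes with the double name summed to 80.3, 84.9 and 77.0 FPKM in transgenic libraries, against 50.1, 39.1 and 46.7 FPKM in wild type. These groups were well apart, with means of 80.7 ± 3.95 and 45.3 ± 5.66 FPKM. GH_A12G2693 held much of that gap. Without it the sums were 46.9, 49.3 and 43.3 FPKM in transgenic libraries, against 37.3, 31.6 and 36.3 FPKM in wild type, still apart. Inhibitors summed to 3.82, 3.68 and 3.41 FPKM in transgenic libraries, against 2.03, 1.04 and 2.90 FPKM in wild type. Genes with the double name held 26.8% to 28.6% of all members' summed level in transgenic libraries and 17.2% to 20.2% in wild type. These sums are descriptions without a test. The median log2 fold change was 0.41 over the 21 tested enzymes and 0.39 over the 8 tested genes with the double name.

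**Figure D5:**
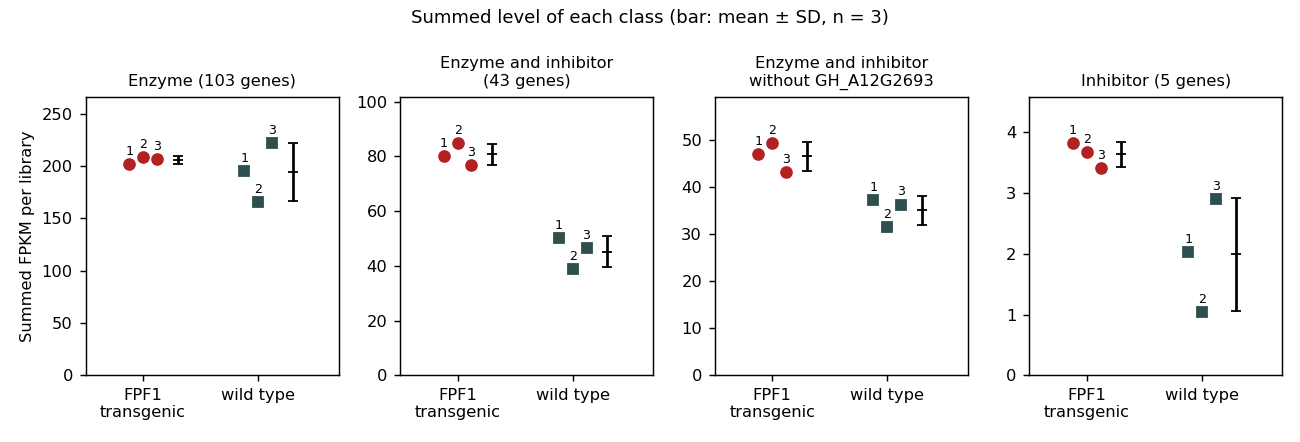
Summed FPKM per library for the 103 enzyme genes, the 43 genes with the double name, the same without GH_A12G2693, and the 5 inhibitor genes, with library numbers at the points and mean ± SD beside them. The enzyme sums overlap between the groups, and the double-name sums stand at 77.0 to 84.9 FPKM in transgenic and 39.1 to 50.1 FPKM in wild-type libraries.

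By subgenome, the 68 members of the A set summed to 132 to 142 FPKM in transgenic and to 78.8 to 108 FPKM in wild-type libraries. The 83 members of the D set summed to 145 to 157 FPKM in transgenic and to 127 to 164 FPKM in wild-type libraries, and these overlapped. The silent genes were spread over both, 29 in the A set and 38 in the D set. GH_A12G2693 belongs to the A set, whose sums averaged 138 FPKM in transgenic and 95.9 FPKM in wild-type libraries. With means of 34.2 and 10.2 FPKM, this gene held much of that gap.

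No member fell past the threshold, while 7 of the 31 tested members had a negative log2 fold change. The largest was in GH_D12G1419, probable pectinesterase 66, with 0.227, 0.137 and 0.416 FPKM in transgenic libraries, against 1.07, 2.84 and 0.119 FPKM in wild type. Wild type 3 was below every transgenic library, and the gene was not called (log2 -0.72, standard error 0.427, adjusted p = 0.346). The next were GH_D07G0194, like the peach gene PPE8B, with a log2 fold change of -0.40, and GH_D05G1445, pectinesterase 3-like, with -0.16. The adjusted p of the first was 0.272 and that of the second was 0.693.

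The authors' deposited table marked 7 of the 151 members as significant, or 4.64%, against 5.12% of all genes in it. In that table the mark coincided with a p-value under 0.05 and a fold change of at least 2, without adjustment. The 5 marked up were GH_A12G2693, GH_D04G0016, both tested genes named 29 and GH_D11G0862 (pectinesterase 2-like precursor). For GH_D11G0862 the authors' deposited table gave an adjusted p of 0.239. The 2 marked down in the authors' deposited table were GH_D12G1419 and GH_A03G1404, a pectinesterase-like gene. GH_A03G1404 had 0.108, 0.115 and 0.284 FPKM in transgenic libraries, against 0.878, 0.786 and 0.267 FPKM in wild type, and was below the filter used here.

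The inhibitor named in a description followed the annotation of function in the table only in part. Of the 151 members, 139 carried the term pectinesterase activity and 142 the enzyme number 3.1.1.11 of pectinesterases. The term pectinesterase inhibitor activity was attached to 85 members, among them 48 of the 103 described as enzymes alone, 35 of the 43 with the double name and 2 of the 5 inhibitors. The split by description is therefore one of names.

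Among other genes of pectin metabolism, found by their descriptions, those of synthesis had few calls. The counts below stand beside 3.92% of all genes called higher and 1.78% called lower, with a median log2 fold change of 0.08. Galacturonosyltransferases, which build the homogalacturonan chain, had 1 rise and no fall among 53 tested genes, with a median log2 fold change of 0.07. The rise was GH_A01G0717, galacturonosyltransferase 12, a type tied to secondary walls in Arabidopsis, at 8.50 ± 1.31 FPKM in transgenic and 2.81 ± 0.442 FPKM in wild-type libraries (adjusted p = 0.00894). Its call ended without transgenic 2 (adjusted p = 0.0579). Putative pectin methyltransferases had 1 rise, GH_D07G1569 (log2 0.82, adjusted p = 0.0429), among 50 tested genes, and no single library could be left out without ending that call (adjusted p up to 0.142). GH_D07G1569 had a wild-type mean of 0.490 FPKM and passed the filter through the transgenic libraries alone.

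Enzymes that cut pectin had a few rises. Pectate lyases and polygalacturonases act on demethylated homogalacturonan, and rhamnogalacturonate lyases on another pectin chain, rhamnogalacturonan. Pectate lyases had 3 rises and no fall among 26 tested genes, or 11.5%, against 3.92% of all genes called higher. Their median log2 fold change was 0.56, against 0.08 over all genes, and they summed to 136 to 155 FPKM in transgenic and to 102 to 107 FPKM in wild-type libraries. The rise with the smallest adjusted p was GH_A09G2187, pectate lyase 1, with 13.1 ± 4.18 FPKM in transgenic and 3.61 ± 1.27 FPKM in wild-type libraries (log2 1.60, adjusted p = 0.0275). The other rises were GH_D12G2066 (log2 1.69) and GH_D09G2122 (log2 1.26). Polygalacturonases had 2 rises and no fall among 42, GH_A05G4049 (log2 1.43) and GH_D07G1532 (log2 0.68). A rhamnogalacturonate lyase, GH_D11G2241, rose by log2 1.42 among 5 tested. GH_D12G2066, GH_A05G4049 and GH_D11G2241 had wild-type means of 0.820, 0.473 and 0.631 FPKM. These genes passed the filter through the transgenic libraries alone, where they were high, which shapes the shares called. Leaving out transgenic 2 or transgenic 3 ended all 6 calls, and leaving out wild type 1 ended all but that of GH_D12G2066. The largest adjusted p reached in this way was 0.143.

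Falls were in the polygalacturonase inhibitor GH_A09G1425, the single gene of its list (log2 -0.92, adjusted p = 0.0364), and in 1 of 12 pectin acetylesterases, GH_A13G2071 (log2 -2.36, adjusted p = 0.0452). Both calls held without wild type 3 and ended without any other library, with adjusted p up to 0.154.

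Proteins of the same domain family as the inhibitors lie outside the members. Of 39 genes described as 21 kDa protein, 17 were tested and 3 fell, or 17.6%, against 1.78% of all genes called lower, and none rose. GH_D08G1999 had 17.5, 11.1 and 16.7 FPKM in transgenic libraries, against 58.5, 52.5 and 64.8 FPKM in wild type (log2 -1.91, adjusted p = 0.00447). It was called without any 1 library. GH_D03G1239 and GH_A03G0704 were lower by log2 differences of -4.08 and -3.75, and both calls ended without transgenic 2 and without wild type 1. That of GH_A03G0704 also ended without transgenic 1 and without wild type 2. GH_D03G1239 averaged 0.989 FPKM in transgenic libraries and passed the filter through the wild type alone. The median of the 17 was 0.20, positive despite these falls. Of 17 invertase inhibitors 1 was tested and not called.

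Subtilases, some of which process the pro-region of pectinesterases in Arabidopsis, had 4 rises and 2 falls among 46 tested genes. GH_A12G2546, SBT2.5, had 26.1, 29.4 and 32.9 FPKM in transgenic libraries, against 6.69, 9.67 and 7.88 FPKM in wild type (log2 1.75, adjusted p = 0.00333). A second SBT2.5 gene, GH_D12G2565, had 10.2 ± 1.67 FPKM in transgenic and 2.61 ± 0.243 FPKM in wild-type libraries (log2 1.62, adjusted p = 0.00429). Both were called without any 1 library. The other rises were GH_A10G0518 (log2 1.06) and GH_D10G0544 (log2 0.89), and leaving out transgenic 2, transgenic 3 or wild type 1 ended both calls. The largest adjusted p was then 0.145. The call of GH_D10G0544 was lost without transgenic 1 or wild type 2 as well. The fall with the smallest adjusted p was GH_A13G1438, SBT3.17 (log2 -1.55, adjusted p = 0.0153), which was not called without transgenic 2 or wild type 1. The second fall, GH_D05G1427 (log2 -0.81, adjusted p = 0.0417), was called with transgenic 1 left out and lost with any other library left out.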

How the data were processed

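RNA of 6 leaf libraries, 3 FPF1 transgenic and 3 wild type, was selected for poly-A and sequenced, per the labels' protocols, which name 2 library kits. The authors deposited 1 table with FPKM per gene and library. Aligner, counter, genome build, strand use and the handling of shared reads are not given in the sources used here. Per the file headers, the authors also gave a fold change (the ratio of mean FPKM), its log2 and a p-value with an adjusted p-value from a test that is not named.

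The listed minimum of 1e-04 was read as 0. No further scaling was applied. The test was limma (version 3.58.1, R 4.3.3), two-sided, with trend and robust estimation and no covariates. It used log2(FPKM + 1) of the 43837 genes whose mean reached 1 FPKM in either group. Benjamini-Hochberg adjustment ran over all of them, and calls are those with adjusted p under 0.05. Fold changes on this scale understate the change of low genes.

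Members were sorted into enzyme, enzyme and inhibitor, and inhibitor by description, and other lists were text searches in the descriptions. The members and lists were chosen with earlier results of these data known. Named genes were the called members, the 8 highest, the 3 largest rises and falls not called, uncalled members with a 2-fold difference and no overlap, the called gene of smallest adjusted p per direction of each pectin list, and the called members wherever these numbered 5 or fewer. Other genes are named as examples of their family or as the genes behind a small count, chosen after their values were seen. The labels do not say whether replicate numbers pair the libraries, and the test took the libraries as unpaired. Sequences were not used here.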

Additional observations from a re-analysis of the deposited data

How the results depend on the processing

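Calls over all genes numbered 2500 as reported and 289 to 2552 with 1 library left out, and the fewest were without transgenic 2 (289), wild type 1 (420) and transgenic 3 (803). Members called numbered 2, and 1 to 3 with 1 library left out. It was 1 without each transgenic library and without wild type 1, in each case GH_A12G2693. Genes of the other pectin lists called numbered 19, and 3 to 23 with 1 library left out. With the replicate number as a block, 1532 genes and 1 member, GH_A12G2693, were called, and GH_D09G2147 had an adjusted p of 0.0695. Same-numbered libraries correlated in their deviations from the group means by 0.0136, 0.0261 and 0.074, and not every library correlated best with its own number. Both scalings, pseudocounts of 0.1 and 0.5, no filter, a filter on the mean of all libraries and a model without trend gave 2 or 3 called members and 1679 to 2532 calls over all genes. The share of rises among all calls was 68.8% as reported, 53.8% after median-of-ratios scaling and 59.4% after upper quartile scaling. The enzyme sum differed by 3.31 FPKM after upper quartile scaling. Depth in reads is unknown, so the precision of values near 0, which most members have, could not be set.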

Other observations

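The enzyme number 3.1.1.11 was also attached in the deposited table to 119 genes whose descriptions do not hold the word pectinesterase. Among them were 35 described as 21 kDa protein and 22 described as trihelix transcription factors, so the number alone does not mark an enzyme here. Of the 65 tested, 5 were higher and 3 lower in the transgenic libraries, beside 3.92% of all genes called higher and 1.78% called lower. The 3 lower genes were the 21 kDa protein genes GH_D08G1999, GH_D03G1239 and GH_A03G0704. The higher ones were GH_D12G2720 (log2 1.69), GH_D01G2340 (log2 1.30), GH_D05G1985 (log2 0.68) and the trihelix genes GH_A01G2257 (log2 1.14) and GH_A05G2907 (log2 0.86). GH_A01G2257 averaged 0.657 FPKM in wild type and passed the filter through the transgenic libraries alone. GH_D03G1239 passed it through the wild type alone.

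One of these genes, picked after its values were seen, was GH_D12G2720 on chromosome D12, described only as a hypothetical protein. It carried the terms pectinesterase activity and pectinesterase inhibitor activity. It had 21.6, 28.1 and 24.4 FPKM in transgenic libraries, against 9.71, 5.43 and 6.21 FPKM in wild type, with no overlap (log2 1.69, standard error 0.202, limma adjusted p = 0.00853). Leaving out transgenic 2 gave an adjusted p of 0.0558 and no call. Of 21 tested genes outside the members with the term pectinesterase activity it was the single one called.

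Another was GH_D05G1446, described as pectin methylesterase, a synonym that the search for the word pectinesterase leaves out, and numbered next to the member GH_D05G1445. It had 24.6, 23.5 and 22.2 FPKM in transgenic libraries, against 24.5, 26.4 and 17.1 FPKM in wild type. The groups overlapped (log2 0.07, standard error 0.164, limma adjusted p = 0.832). This gene too was picked after its values were seen.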
